A study of Mus musculus with 8 samples.

Results

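The Vmn2r genes encode type 2 vomeronasal receptors, and 121 of them, taken as every autosomal protein-coding gene whose symbol starts with Vmn2r, were examined in the WFS1 ChIP-seq peak lists of C2C12 myoblasts. They were 121 of the 20807 autosomal protein-coding genes of the GRCm38 annotation, including Vmn2r-ps159, which this annotation counts as protein-coding despite its symbol. A further 113 autosomal Vmn2r pseudogenes and 1 coding Vmn2r gene outside the autosomes were not counted. C2C12 is a mouse myoblast line that fuses into myotubes, and WFS1 is a transmembrane protein of the endoplasmic reticulum and nuclear envelope. Proliferating wildtype cells were crosslinked with DSG, a crosslinker of proteins, and then with formaldehyde, and chromatin bound by an antibody against WFS1 was sequenced after 30 sonication cycles and, from a part of the same precipitate, after 36. The experiment held 8 libraries, of which the 2 wildtype WFS1 peak lists were used here. The inputs and the libraries of WFS1 knockout cells that express FlagTag WFS1 were not used.

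Each condition had 1 library, neither list was a replicate of the other, and no test between them was made. The 30-cycle list held 18283 peaks and the 36-cycle list 12674. Overlapping peaks were joined into 22292 combined peaks, of which 7897 were in both lists, 10141 only in the 30-cycle list and 4254 only in the 36-cycle list. The lists give positions only, so read depth and peak height are unknown, and the intervals given here cover counting error only. Positions are on GRCm38, counted from 1.

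Type 2 vomeronasal receptors are class C G-protein-coupled receptors with a large extracellular ligand-binding domain. They are used by basal sensory neurons of the vomeronasal organ, which detect peptide and protein pheromones and signal through the G protein subunit Gnao1 and the channel Trpc2. Most such neurons express few members of the family, together with receptors of the Vmn2r1 to Vmn2r7 group, which are known as family C and are shared broadly. The genes arose by repeated duplication and lie in clusters with many pseudogenes. Expression in C2C12 cells was not measured in these files, so that the genes are silent in them is taken from their known use in sensory neurons.

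The members lay on 8 autosomes, with 51 genes on chromosome 7, 32 on chromosome 17, 11 on chromosome 5, 9 on chromosome 6, 8 on chromosome 10, 7 on chromosome 3, 2 on chromosome 14 and 1 on chromosome 4. Neighbours at most 500 kb apart were joined, which gave 14 clusters with 116 members. The other 5 members, Vmn2r-ps159, Vmn2r18, Vmn2r28, Vmn2r118 and Vmn2r120, stood alone. Where a chromosome held several clusters, they are lettered A, B and so on in order along it. Members of 1 cluster share neighbourhoods and are not independent replicates. The Wilson intervals given below still count each gene as 1 trial, so they are likely too narrow.

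Few WFS1 peaks touched these genes, and the sequences of those that touched or came nearest to a member show what was called there. The central 200 bases of 3 such peaks follow, each present in both lists and read 5′ to 3′ on the forward strand. They are the peak nearest to any member start site, between Vmn2r85 and Vmn2r86 (chr10:130434172-130434371), the peak in an intron of Vmn2r19 (chr6:123320457-123320656), and the wider of the peaks in Vmn2r13, also in an intron (chr5:109159006-109159205). Capitals mark a match to AACCACA or its complement TGTGGTT, the sequence bound by RUNX factors.
Peak between Vmn2r85 and Vmn2r86: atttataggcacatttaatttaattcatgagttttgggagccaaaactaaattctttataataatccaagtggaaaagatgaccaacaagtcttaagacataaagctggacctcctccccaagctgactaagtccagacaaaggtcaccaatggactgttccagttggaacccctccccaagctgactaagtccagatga
Peak in Vmn2r19: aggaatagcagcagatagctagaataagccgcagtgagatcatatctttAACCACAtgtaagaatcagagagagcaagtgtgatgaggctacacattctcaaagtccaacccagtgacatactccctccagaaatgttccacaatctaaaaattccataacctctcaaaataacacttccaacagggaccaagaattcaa
Peak in Vmn2r13: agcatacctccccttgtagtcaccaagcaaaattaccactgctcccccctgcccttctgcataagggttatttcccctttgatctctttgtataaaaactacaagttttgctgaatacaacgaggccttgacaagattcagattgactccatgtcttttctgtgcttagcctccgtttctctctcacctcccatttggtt

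Of these 3 stretches, the one in Vmn2r19 held an AACCACA. None held the E-box CAGCTG or the AP-1 sequence TGACTCA or its complement TGAGTCA. The other peak in Vmn2r13, not printed, held TGAGTCA and TGTGGTT in its central 200 bases. Of all 6 peaks in members, 1 held an AP-1 sequence and 0 held CAGCTG. Only 19 combined peaks lay within 50 kb of a member start site.

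No member had a WFS1 peak at its start site, that is within 1 kb on either side. The count was 0 of 121, which by the rule of 3 counts allows a share of up to 2.48% (95% Wilson upper bound 3.08%), in the combined set and in each list. Among all autosomal protein-coding genes, 13.8% had such a peak in the combined set, 11.4% in the 30-cycle list and 6.29% in the 36-cycle list. If every peak kept its length and could lie anywhere on its own chromosome, 2.50 members would have had one on average, a number called the placement expectation here. All 121 members had CpG-poor start sites, with a median observed-to-expected CpG ratio of 0.101 within 500 bp of the start site, against 0.608 for genes outside this and 3 other clustered families (Vmn1r, Olfr and Defb). Among the 8133 CpG-poor autosomal protein-coding genes, those with a ratio under 0.4, 3.41% had a peak within 1 kb, and placement gave 2.07% of members. Both limits for the members lie under the first and above the second of these shares. Of the pseudogenes, 1 had a peak at its start, Vmn2r-ps25 on chromosome 5, named after its value was seen.

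A peak overlapped 5 of the 121 members, or 4.13% (95% Wilson interval 1.78 to 9.31), where placement gave an expected 27.1 members. Across all autosomal protein-coding genes the share was 25.6%. In the 30-cycle list 3 members held a peak, against 22.7% of all genes, and in the 36-cycle list 4 members, against 15.6%. The 5 genes lay on 5 chromosomes.

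Vmn2r85 (chr10:130414064-130429703, reverse strand) held a 215-bp peak at chr10:130422864-130423078, called after 36 cycles only and 6.63 kb inside the gene, where it overlapped an exon. Vmn2r19 (chr6:123308333-123336537, forward strand) held a 518-bp intronic peak of both lists, 11.97 kb from the start site. This was the only peak in the chromosome 6 cluster. Vmn2r13 (chr5:109152940-109192199, reverse strand) was the only member with more than 1 peak. Its 796-bp intronic peak, in both lists, lay 32.7 kb from the start site, and its 221-bp peak, called after 36 cycles only, lay 38.1 kb from the start site in the 3′ UTR.

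Vmn2r103 (chr17:19773363-19812536, forward strand) held a 335-bp peak called after 30 cycles only, 25.9 kb from the start site, at the edge of an exon. Vmn2r-ps159 (chr4:156331103-156339499, forward strand), the only member on chromosome 4, held a 219-bp intronic peak called after 36 cycles only, 6.13 kb from the start site. Of the 6 peaks in members, 2 were thus in both lists, 1 in the 30-cycle list alone and 3 in the 36-cycle list alone.

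Within 50 kb of the start site, 17 members had a peak, or 14.0% (95% Wilson interval 8.96 to 21.4), and placement gave an expected 68.1. Of all autosomal protein-coding genes 56.1% had one. In the 30-cycle list the count was 14 members, against 52.3% of all genes, and in the 36-cycle list 13, against 37.9%. There were 10 members with a peak within 50 kb in each of the lists. The members sit in AT-rich surroundings, and the GC content within 50 kb of their start sites had a median of 38.2% against 44.9% for the other genes. Among other genes whose local GC content was within 0.5 points of the member's, a share of 29.0% would have been reached, or 35.2 members in place of 68.1, and the 17 observed lay below both numbers. The other genes of like GC content numbered from 6 to 1672 per member, since few genes lie in the most AT-rich sequence.

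The 17 members were unevenly spread. All 4 members of the chromosome 10 B cluster were among them, with Vmn2r85 nearest at 4.003 kb, followed by Vmn2r86 at 21.2 kb, Vmn2r87 at 25.8 kb and Vmn2r84 at 28.5 kb. The chromosome 5 cluster gave 3, with Vmn2r12 at 11.01 kb, Vmn2r13 at 32.7 kb and Vmn2r11 at 49.4 kb. Chromosome 7, which holds 51 members, gave 5, and chromosome 17, which holds 32, gave 2. The count on chromosome 10, 5 of 8 members, was close to the 5.53 expected by placement, whereas on chromosome 7 an expected 24.4 and on chromosome 17 an expected 21.6 were far from the counts.

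The nearest peak lay a median of 273 kb from a member start site, with quartiles of 102 and 533 kb and a range from 4.003 kb at Vmn2r85 to 1606 kb at Vmn2r40. For all autosomal protein-coding genes the median was 38.4 kb. The nearest peak was over 100 kb away for 92 members, over 500 kb for 34 and over 1 Mb for 7. It lay upstream of the start site for 61 members and downstream for 60. In the 30-cycle list the median was 273 kb and in the 36-cycle list 406 kb, against 45.3 and 80.9 kb for all genes.

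Family C, Vmn2r1 to Vmn2r7, makes up the chromosome 3 cluster, and none of its 7 genes had a peak within 50 kb, where 4.05 were expected by placement. Distances to the nearest peak were 105 kb for Vmn2r1, 165 kb for Vmn2r2, 313 kb for Vmn2r3, 438 kb for Vmn2r4, 533 kb for Vmn2r5, 589 kb for Vmn2r6 and 390 kb for Vmn2r7. The genes share the nearest peaks on either side of the cluster, so these distances are not independent. Of the 5 members alone, Vmn2r-ps159 had its nearest peak at 6.13 kb, inside the gene, and Vmn2r28 at 46.4 kb, while the distance was 98.0 kb for Vmn2r18, 273 kb for Vmn2r118 and 294 kb for Vmn2r120. Vmn2r116, the receptor of the male tear peptide ESP1, lay 150.3 kb from a peak and was named for its ligand, outside the rule used for the other names.

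**Figure D1:**
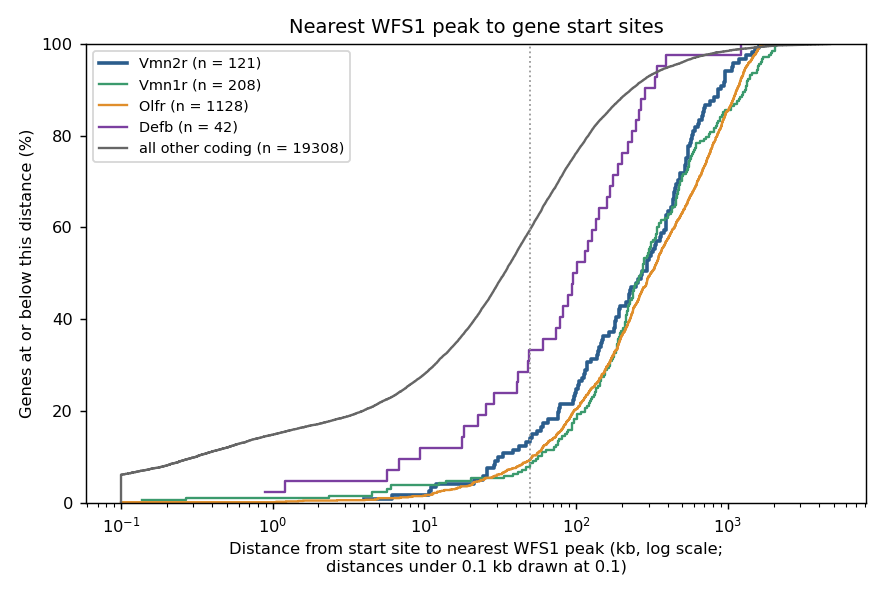
Cumulative share of genes (%, vertical axis) by distance from the start site to the nearest combined WFS1 peak (kb, logarithmic horizontal axis), with 1 line for each gene family and a dotted line at 50 kb. The lines of Vmn2r, Vmn1r and Olfr genes lie close together, with medians of 273, 271 and 310.4 kb, to the right of Defb genes at 98.3 kb and of all other coding genes at 33.6 kb.

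Other large clustered families gave like values. Of 208 Vmn1r genes, which encode type 1 vomeronasal receptors of apical neurons, 18 or 8.65% had a peak within 50 kb, and the median distance was 271 kb. Of 1128 Olfr genes, which encode odorant receptors, 106 or 9.40% had one, with a median of 310.4 kb. The Wilson intervals of both shares, 5.54 to 13.3 and 7.83 to 11.2, overlapped that of the members, 8.96 to 21.4. They all count genes of a cluster as independent and are likely too narrow. Defb genes, which encode the beta-defensins of epithelia, were nearer to peaks, with 14 of 42 or 33.3% within 50 kb and a median of 98.3 kb. Of the remaining 19308 genes, 59.7% had a peak within 50 kb.

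At start sites the other families had a peak at 2 Vmn1r genes (Vmn1r4 and Vmn1r61), 1 Olfr gene (Olfr432) and 1 Defb gene (Defb25), all named after their values were seen. Placement gave an expected 3.92, 24.8 and 0.870 genes of these families. In the gene, the shares were 2.88% for Vmn1r, 0.709% for Olfr and 2.38% for Defb, against 4.13% for Vmn2r. The members are longer, with a median length of 27.1 kb against 6.797 kb for Vmn1r and 5.99 kb for Olfr genes, and placement gave expected shares of 22.4%, 5.95% and 6.15%. The plot of distances shows that the vomeronasal and odorant receptor families followed almost the same course.

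The 14 clusters covered 12.4 Mb and held 34 combined peaks (exact 95% Poisson interval 23.5 to 47.5), where same-chromosome placement gave an expected 105. The ratio was 0.325 (0.225 to 0.454). It was 0.290 in the 30-cycle list, with 25 peaks, and 0.427 in the 36-cycle list, also with 25 peaks. In the 500 kb on each side of the clusters 103 peaks lay where 106 were expected, a ratio of 0.968 (0.790 to 1.17). Per Mb, the clusters had 2.74 peaks and the sequence on each side 8.07.

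GC content moved with this result. It averaged 38.2% in the clusters and 41.4% in the 500 kb on each side. When the expected number was taken from 10 kb bins of the same chromosome with like GC content, it fell to 42.1 in the clusters, the ratio rose to 0.808 and its interval of 0.560 to 1.13 included 1. In the bins on each side the ratio became 1.06 (0.866 to 1.28). Against sequence of like GC content the difference of the clusters as a whole was thus within counting error. Placement only on sequence that occurs at 1 place in the genome gave 91.4 expected peaks and a ratio of 0.372.

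The peaks that did lie in clusters were divided between receptor genes and other sequence. Member genes covered 3.54 Mb of the clusters and held 5 peaks by their centres, against 30.1 expected by placement and 9.77 in bins of like GC content. The 88 intervals between neighbouring members that hold no other protein-coding gene covered 6.64 Mb and held 8 peaks, against 54.9 and 22.2. The 12 intervals that do hold another coding gene covered 2.21 Mb and held 21 peaks, against 19.6 and 9.54. The last group thus had 9.49 peaks per Mb, and the intervals without another gene 1.21 per Mb.

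With counting error, the intervals without another coding gene had a ratio of 0.361 (0.156 to 0.710) to bins of like GC content, and those with another coding gene 2.20 (1.36 to 3.36). Member genes had 0.512 (0.166 to 1.19). The first of these ranges lies below 1 and the second above 1, so the ratio for the clusters as a whole combined a low and a high part. The bins were chosen by GC content only, whereas the intervals were sorted by whether they hold another coding gene. Bins were also not matched for sequence that occurs at 1 place in the genome, which made up 27.3% and 40.7% of clusters A and B of chromosome 7. The part of either in these ratios was not tested. Of the 21 peaks in intervals with another coding gene, 10 lay in a single one on chromosome 17, and without it 11 peaks against 7.33 gave a ratio of 1.501 (0.749 to 2.69), whose range included 1.

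**Figure D2:**
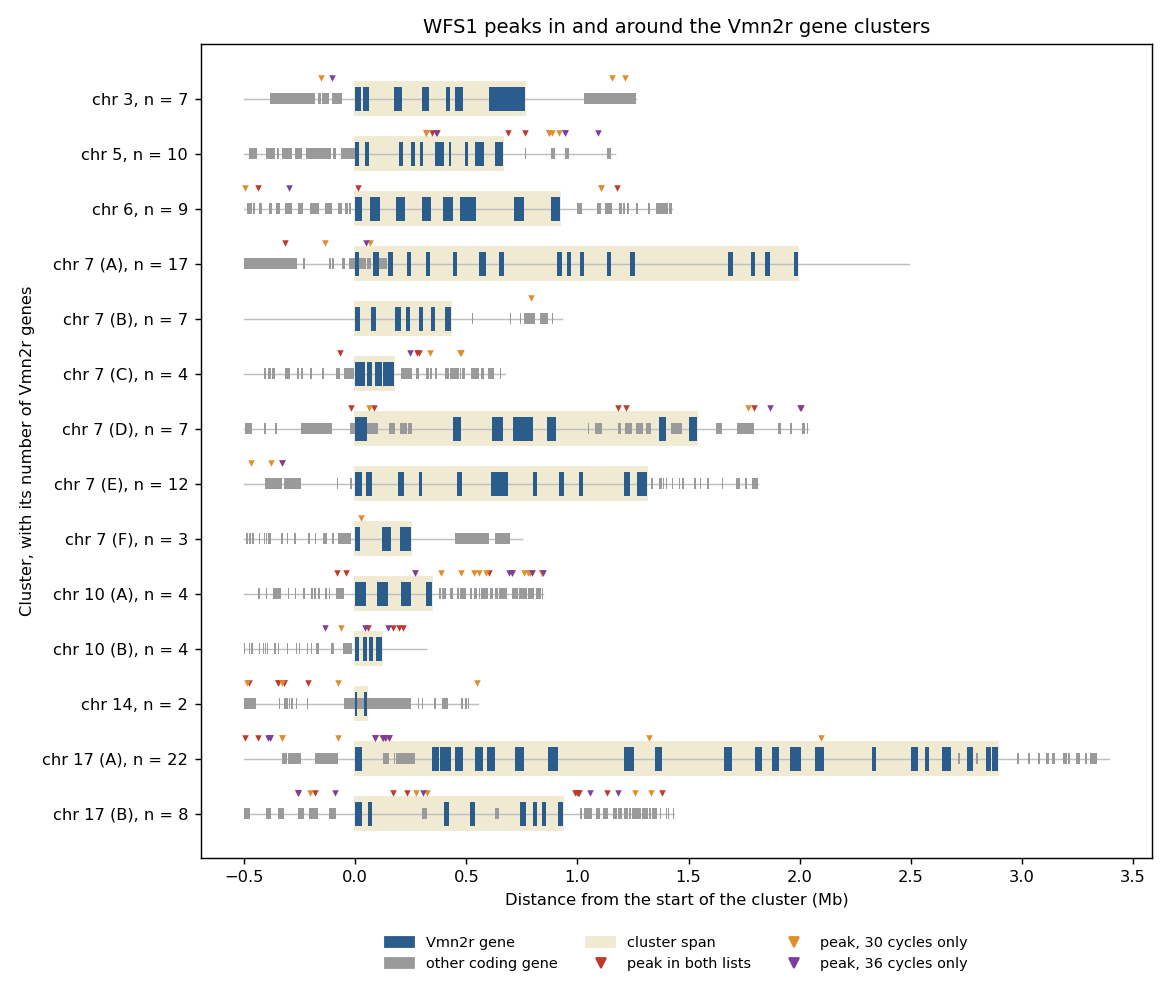
Maps of the 14 clusters (1 per row, with the number of members) and 500 kb on each side, by distance from the start of the cluster (Mb). Blue boxes are Vmn2r genes, grey boxes other coding genes and triangles combined peaks coloured by list. Long runs of Vmn2r genes carry no triangle, and 10 of the 34 triangles inside clusters gather beside grey boxes at the left end of chromosome 17 A, whereas the 5 on chromosome 5 lie among Vmn2r genes.

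The map of the clusters shows where the peaks lay. In cluster A of chromosome 17, from Vmn2r90 to Vmn2r110, 12 peaks were found where 32.3 were expected by placement and 11.4 in bins of like GC content. Of the 12, 10 lay within 66.5 kb (chr17:17791200-17857663) in the interval between Vmn2r90 and Vmn2r124. They lay at or near Spaca6, a sperm membrane protein gene that hosts Mir99b, Mirlet7e and Mir125a, and Has1, a hyaluronan synthase gene. The nearest to Spaca6 lay 0.119 kb from its start site, and the nearest to Has1 0.469 kb. Of these 10 peaks, 3 were in both lists, 2 in the 30-cycle list alone and 5 in the 36-cycle list alone, and all were 87.5 to 153 kb from the start of Vmn2r90. Without that interval the clusters had 24 peaks, against 101 expected, a ratio of 0.237.

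The same interval holds the formyl peptide receptor genes Fpr1, Fpr2, Fpr3 and Fpr-rs4, some of which are also used by vomeronasal neurons, and none of the 10 peaks overlapped them. The other 2 peaks of the cluster lay 29.0 kb upstream of Vmn2r98 and in Vmn2r103. From the latter, a run of 1471 kb without a peak reached past the cluster's end, the 6th longest of 1062 such runs on the chromosome. The member farthest from a peak there was Vmn2r109, at 705 kb.

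Cluster B of chromosome 17, from Vmn2r111 to Vmn2r117, held 5 peaks against 10.46 expected, all between Vmn2r112 and Vmn2r113. Among these 5, 2 overlapped the zinc finger gene Zfp945, 1 of them 0.420 kb from its start site. The other 3 overlapped a processed pseudogene in 2 cases and a lincRNA in 1. No member of this cluster had a peak within 50 kb, with Vmn2r117 nearest at 55.2 kb and Vmn2r114 farthest at 222 kb. Across all clusters, 5 of the 34 peaks overlapped a member and 12 another coding gene. The nearest coding start site was a member's for 15 peaks.

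Chromosome 7 held 6 clusters with 50 members and 7 peaks. Cluster A, from Vmn2r29 to Vmn2r37, had 17 members and 2 peaks against 12.9 expected. Both lay between Vmn2r29 and Vmn2r30, at Gm45844 and at Clcn4, a chloride transporter gene, and the cluster's farthest member was Vmn2r40. Cluster B, from Vmn2r46 to Vmn2r52, had no peak, with distances of 361 kb at Vmn2r52 to 767 kb at Vmn2r46. A single run of 3238 kb without a peak, the 4th longest of 943 on the chromosome, spanned most of A and all of B. Cluster C, from Vmn2r53 to Vmn2r56, also had no peak, with 1.12 expected, and lay between the peak-holding zinc finger genes Zfp606 and Zfp329.

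Cluster D, from Vmn2r57 to Vmn2r63, had 4 peaks against 9.97 expected, and each overlapped another coding gene, namely Gm20449, AW146154, Zfp977 or Zfp976. Vmn2r57 was its nearest member at 10.64 kb and Vmn2r59 its farthest at 521 kb. Cluster E, from Vmn2r65 to Vmn2r76, had 12 members in 1.31 Mb, no other coding gene and no peak, against 8.50 expected by placement and 2.51 in bins of like GC content. The distances ran from 358 kb at Vmn2r65 to 1064 kb at Vmn2r72, and a run of 2213 kb without a peak, the 9th longest on the chromosome, reached from before it into cluster F. Cluster F, from Vmn2r77 to Vmn2r79, had 1 peak against 1.62 expected, 24.3 kb downstream of the start of Vmn2r77, and Vmn2r79 was farthest at 176 kb.

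On the other chromosomes, the chromosome 3 cluster had no peak against 6.56 expected by placement and 3.90 in bins of like GC content, where a count of 0 has an upper Poisson bound of 3.69. The peak-holding genes next to it were Gmps and Kcnab1. The chromosome 6 cluster, from Vmn2r19 to Vmn2r27, had 1 peak against 7.34 expected, and Vmn2r25 lay farthest from a peak at 533 kb. The chromosome 14 pair, Vmn2r88 and Vmn2r89, had none against 0.367 expected, with distances of 76.7 and 118 kb.

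Chromosomes 5 and 10 stood closest to placement. The chromosome 5 cluster, from Vmn2r8 to Vmn2r17, had 5 peaks against 5.29 expected, all between Vmn2r12 and Vmn2r13 or in the latter, and Vmn2r8 lay farthest at 300.1 kb. Cluster A of chromosome 10, from Vmn2r80 to Vmn2r83, had 2 peaks against 4.04 expected, both at a lincRNA gene between Vmn2r82 and Vmn2r83. Vmn2r80 was its nearest member at 42.0 kb and Vmn2r81 its farthest at 141 kb. Cluster B of chromosome 10, from Vmn2r84 to Vmn2r87, was the only one above placement, with 2 peaks against 1.40 expected, a difference within counting error.

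**Figure D3:**
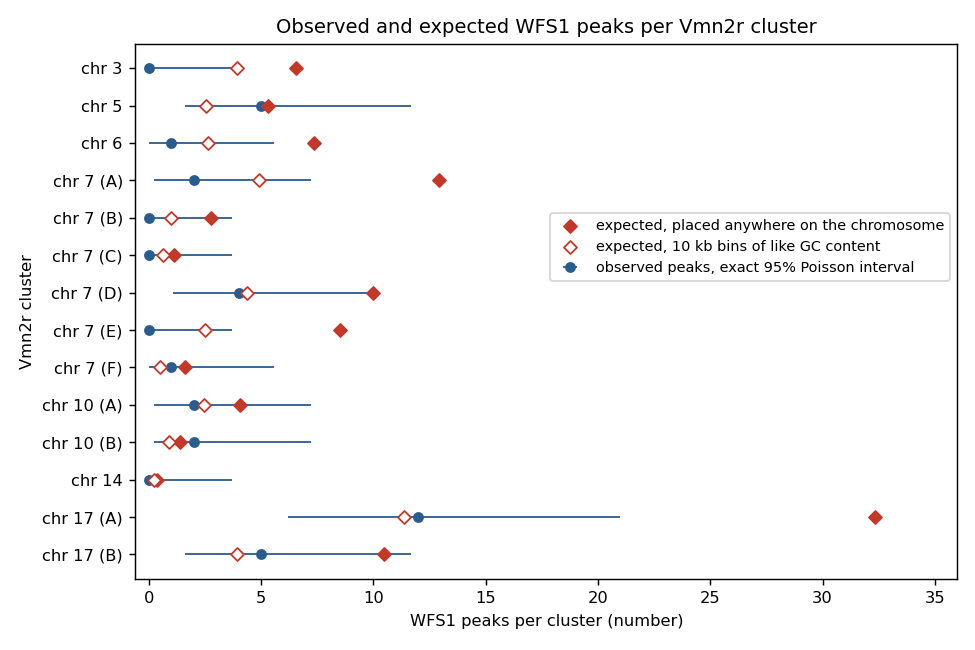
Number of combined WFS1 peaks in each cluster (blue points, bars are exact 95% Poisson intervals) beside the number expected from placement anywhere on the chromosome (filled red diamonds) and from 10 kb bins of like GC content (open red diamonds). In 5 clusters the filled diamond lies beyond the bar, whereas the open diamond does so only for chromosome 3.

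In all, 13 of the 14 clusters had fewer peaks than placement gave. In 5 of them, on chromosomes 3, 6, 7 (A and E) and 17 (A), the expected number lay above the upper Poisson bound. Placement only on sequence that occurs at 1 place in the genome gave 5.40 on chromosome 6 and 4.04 in 7 (A). These lay under the upper bounds of 5.57 and 7.22, whereas on chromosomes 3, 7 (E) and 17 (A) the expected number stayed above. Against bins of like GC content, 9 clusters lay below the expected number and 5 above it, namely those on chromosomes 5, 7 (F), 10 (B) and 17 (A and B). The 5 clusters without a peak held 32 members. The plot of observed and expected numbers shows that bins of like GC content moved the expected number into the interval on chromosomes 6, 7 (A and E) and 17 (A). On chromosome 3 it stayed above the interval.

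The 35 peaks in the clusters or in members alone had a lower GC content and a higher share of repeat bases than all combined peaks. Their median width was 353 bp against 376 bp, their median GC content 42.4% against 47.1%, and their median share of repeat bases 31.5% against 11.5%. The 6 peaks in members had a median GC content of 35.0%. Of the 35, 11 or 31.4% were called after 36 cycles only, against 19.1% of all peaks, and no interval was computed for this share. Among these 11, 5 lay at or near Spaca6 and Has1. The 35 were in both lists in 37.1% (95% Wilson interval 23.2 to 53.7) against 35.4%. In the central 200 bp, CAGCTG, the E-box read by myogenic factors, was in 0 of 35, which by the rule of 3 counts allows a share of up to 8.57% (95% Wilson upper bound 9.89%), against 17.97% of all peaks. TGACTCA or TGAGTCA was in 5, or 14.3% (6.26 to 29.4), against 17.9%. AACCACA or TGTGGTT was also in 5, or 14.3% (6.26 to 29.4), against 10.59%. Both of these intervals included the share of all peaks. The part of GC and repeat content in these shares was not tested.

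Repeated sequence limits what could be called in this family, because reads of low mapping quality had been removed. Positions whose 100-base sequence, the read length, occurs at a single place in the genome made up 80.7% of the members' gene bodies and 75.8% of the clusters. The share was 91.5% of the autosomes, 91.2% of Vmn1r genes and 95.98% of Olfr genes. Of the combined peaks' positions 99.8% were of this kind. The share per gene had a median of 93.8%, but 23 of the 121 members were under 50%.

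Those members were concentrated on chromosome 7. The median share per gene was 24.9% in cluster A and 43.99% in cluster B, against 98.6% in cluster A of chromosome 17 and 99.7% in cluster E of chromosome 7. In Vmn2r46 and Vmn2r47 no position was unique, and in Vmn2r21 on chromosome 6 only 2.03% were. In such genes, no binding and no read that could be placed cannot be told apart.

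**Figure D4:**
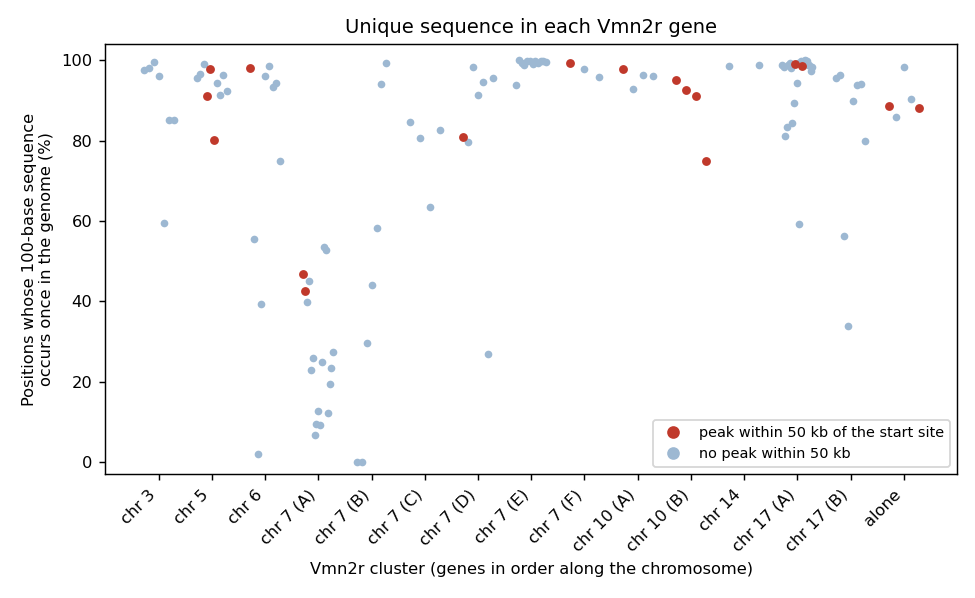
Share of positions in each Vmn2r gene whose 100-base sequence occurs at 1 place in the genome (%), by cluster, with genes in order along the chromosome. Red points are the 17 members that had a peak at most 50 kb from the start, blue points the others. Clusters A and B of chromosome 7 have the lowest medians, and the lowest points lie in cluster B and on chromosome 6. Many blue points on chromosomes 7 (E) and 17 (A) lie near the top.

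An example shows how far the repetition goes. The 100-base sequence printed here, at the junction of a coding exon and intron in Vmn2r29 (chr7:7247082-7247181, forward strand of the genome), occurs 19 times without a difference between chr7:7247082 and chr7:10053031. Of its copies, 9 lie in members (Vmn2r29, Vmn2r31, Vmn2r33, Vmn2r38, Vmn2r39, Vmn2r43, Vmn2r44, Vmn2r46 and Vmn2r50) and 10 in annotated pseudogenes between them. A read of this sequence could not have been assigned to any of them.
Repeated sequence of chromosome 7: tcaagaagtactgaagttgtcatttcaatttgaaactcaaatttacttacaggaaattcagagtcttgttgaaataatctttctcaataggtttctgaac

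The members were also split by their share of unique positions. Of the 71 members with at least 90% unique positions, 10 or 14.1% had a peak within 50 kb, where 41.3 were expected by placement and 19.4 from other genes of like local GC content. Of the 50 members under 90%, 7 or 14.0% had one, where the same expectations were 26.9 and 15.7. A split by the unique share within 1 kb of the start site gave another picture. Of the 79 members with at least 90% there, 14 or 17.7% had a peak within 50 kb, where placement gave 46.2. All 5 members with a peak in the gene were among these 79. Neither split describes the whole 50 kb on each side of the start site. As the plot of unique sequence shows, the members with a peak spanned the range from 42.5% at Vmn2r30 to 99.3% at Vmn2r77.

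Other genes of vomeronasal sensing were examined as a list of 65. It was made of signalling components, partner and ligand genes, formyl peptide receptor genes and factors of vomeronasal neurons. None had a peak at its start site (95% Wilson upper bound 5.58%), where placement gave an expected 1.52 genes and 13.8% of all genes had one. Of the 65, 56 had CpG-poor start sites. Among all CpG-poor genes the share was 3.41%, which lies under that bound. In the gene, 1 had a peak, against 6.73 expected by placement and a share of 25.6% over all genes. This gene was Gnao1, the G protein subunit of neurons that use Vmn2r genes and also of many other cells, which held 4 peaks, the nearest 22.4 kb from its start site. Within 50 kb, 11 of 65 or 16.9% (95% Wilson interval 9.72 to 27.8) had a peak. Placement gave an expected 39.9 genes, and 56.1% of all genes had one. The median distance was 225 kb.

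The clustered genes of the list made up most of those without a peak within 50 kb. Of 22 major urinary protein genes, 15 Esp peptide genes, 9 H2-M genes and 5 formyl peptide receptor genes, 1 each had a peak within 50 kb. Of the 14 other genes, among them B2m, Omp, Gng8 and Lhx2, 7 had one, against 7.86 expected.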

How the data were processed

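The peak lists of WFS1 ChIP-seq in wildtype C2C12 cells after 30 and 36 sonication cycles were used. Per the study's methods, the authors mapped single-end 100-base reads to GRCm38 with NextGenMap, removed reads of mapping quality below 10 with samtools and called peaks with MACS2 for each library, without pooling. The control used in peak calling is not given in the sources used here. The deposited values are peak starts and ends, with no read count, score or fold, so depth per library and precision of single peaks are unknown.

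Lists were joined as by bedtools merge, and overlap meant at least 1 bp. Genes, with 1 start site each at the 5′ end, came from GENCODE mouse release 21, an earlier release than the methods name. Distances run from start site to the nearest peak edge. The expected number under placement anywhere on the chromosome was computed exactly and equals the mean of bedtools shuffle. Shares have 95% Wilson and counts exact 95% Poisson intervals, a share of 0 also has the limit that 3 counts allow, and no p-value was computed. GC bins were 10 kb. Copies of each 100-base sequence were counted over the whole reference on both strands. The repeat share is that of soft-masked bases.

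Members and lists were chosen with earlier results of these data known. By rule, the text names members with a peak in the gene, in each cluster those nearest to and farthest from a peak, Vmn2r1 to Vmn2r7, members alone, genes at or nearest to peaks in clusters, peak-holding genes beside clusters, and genes of the pathway list with a peak in the gene. Other names were chosen after values were seen. Alternatives were each list alone, other windows, joins and backgrounds, and pseudogenes. Joining, placement and copy counting were tested on simulated data. The tools were bedtools 2.31.1, scipy 1.17.1, numba 0.67.0, pandas 2.3.3, numpy 2.4.6 and Python 3.11.15.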

Additional observations from a re-analysis of the deposited data

How the results depend on the processing

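Of the 31 alternatives computed, 2 changed only the background and could not move the members' count. Genes of like local GC content took the share with a peak within 50 kb from 56.1% to 29.0%, and CpG-poor genes that at start sites from 13.8% to 3.41%. Of the rest, 21 left a count of 0 at 0 or changed the value by less than 1.5-fold in either direction. The other 8 are given next. They raised a count from 0 or exceeded 1.5-fold, except the share of unique positions, which changed less. Counts were compared as they stood, also where the number of genes differed, and without regard to the intervals. With pseudogenes included, 1 of 234 genes had a peak at the start site and 28 of 234 (12%) had one within 50 kb. That share lay inside the members' Wilson interval of 8.96 to 21.4. In the 30-cycle list alone, 3 members (2.48%) held a peak in the gene, inside the interval of 1.78 to 9.31. Within 25 kb of the start site 7 members had a peak, against 40.5% of all genes, and within 100 kb 29, against 72.2%. Joining members up to 200 kb apart gave a ratio of peaks in clusters to placement of 0.197 (15 against 76.1), and bins of like GC content a ratio of 0.808. With 50 in place of 100 bases, 69.1% of member gene positions were unique.

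The comparison with genes of like local GC content and the clusters without the interval from Vmn2r90 to Vmn2r124 were chosen after seeing the data. The division of the clusters into member genes and intervals was not among the comparisons planned beforehand. No paired analysis was possible because no test between groups was made and each condition had 1 library. Unknown depth, lists without scores and repeated sequence limit all counts. Where reads cannot be placed, a missing peak says nothing about binding.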
